A study of Mus musculus with 8 samples.

Results

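Genes of the heat shock protein and chaperone families were compared between GPR35-positive and GPR35-negative cells of the mouse colon, sorted as MHCII+CD64+ macrophages. The GPR35-negative libraries also held much B and plasma cell RNA, with Jchain alone at 7.37 to 14.1% of their counts. Members were chosen by symbol: the HSP70, HSP90, HSP110 and small heat shock protein genes, the DnaJ (HSP40) classes A, B and C, the BAG cofactors, the subunits of the chaperonin CCT/TRiC, the heat shock factors Hsf1 and Hsf2, and the co-chaperones Stip1, St13, Ahsa1 and Chordc1, without Hspa5, Dnajb9, Dnajb11, Dnajc3 and Dnajc10 of the endoplasmic reticulum. This gave 79 of the 14980 genes in the deposited table, and 78 of them passed a filter on low counts. Dnajc22 did not pass it, at 0 to 0.374 CPM in GPR35-positive and 0 to 1.73 CPM in GPR35-negative libraries. Most members act in the cytosol, but the symbols also take in members of other compartments. Among these are the mitochondrial chaperones Hspa9, Hspd1 and Hspe1 and the mitochondrial J-domain genes Dnaja3, Dnajc15 and Dnajc19. Others are the microsomal Hspa13, and Dnajc1, Dnajb12 and Dnajb14 of the endoplasmic reticulum membrane. This list is not complete.

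GPR35 is a G protein-coupled receptor, and the series profiled cells sorted as macrophages of the colonic lamina propria, with and without it. The GPR35-positive group held 4 libraries and the GPR35-negative group 4, all from cells sorted as MHCII+CD64+, and each of 4 male mice gave 1 library of each kind. Both groups went through the same EDTA treatment, collagenase and DNase digestion, and cell sorting. The labels used here state no strain, genotype, age or treatment.

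Heat shock proteins bind unfolded or aggregating proteins. HSP70 folds its clients in ATP-driven cycles that J-domain proteins start and that nucleotide exchange factors (HSP110 and BAG proteins) reset, HSP90 acts on kinases and receptors late in folding, and CCT/TRiC folds actin and tubulin. Under heat and other protein-damaging stress the transcription factor HSF1 binds inverted repeats of GAA in the promoters of the inducible members.

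Total counts per library ran from 33776161 to 48609595 in the GPR35-positive group and from 15999301 to 30071863 in the GPR35-negative group. Gpr35 was at 73.3 ± 14.8 CPM (counts scaled to library size with TMM factors) in GPR35-positive and 2.96 ± 1.46 CPM in GPR35-negative libraries (SD, n = 4 each), in the direction of the labels. Here and below ± after CPM is the SD over 4 libraries and ± after a log2 fold change its SE. All 16 macrophage identity genes were detected in both groups and all 16 were higher in GPR35-positive cells, with sums of 42110 to 50457 CPM against 4450 to 21402 CPM in GPR35-negative libraries. All 12 B and plasma cell genes were lower, with sums of 1244 to 2695 CPM in GPR35-positive and 73624 to 144157 CPM in GPR35-negative libraries, and Jchain alone took 0.0589 to 0.197% of GPR35-positive and 7.37 to 14.1% of GPR35-negative counts. Lower as well were 9 of 12 stromal and endothelial genes (75%) and 9 of 11 T and innate lymphoid genes (81.8%). Among all genes tested 19.5% were lower and 18.4% higher. Nearer to these shares, 2 of 10 epithelial genes (20%) and 2 of 7 granulocyte and mast cell genes (28.6%) were lower. In the dendritic cell list 2 of 8 genes (25%) were higher. In bulk libraries fewer cells of a type and less RNA per cell cannot be told apart, and the part of these markers in the differences below was not tested.

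Of the 78 tested chaperone genes, 18 were higher and 12 lower in GPR35-positive cells by edgeR's quasi-likelihood test (adjusted p under 0.05 over all 14193 genes tested), which is 38.5% of them against 38.0% of all genes. The share of higher genes was 23.1% against 18.4% of all genes, and that of lower genes 15.4% against 19.5%. Chaperone genes were thus called about as often as genes in general, and their median log2 fold change was 0.11 against -0.05 over all genes. The CPM ranges of the groups did not overlap for 41.0% of the members and for 42.1% of all genes. With library size as the only scaling, which moved the median of all genes to -0.34, 9 members were higher and 18 lower. The higher members included 4 of 9 HSP70 genes, among them the most abundant members Hspa1b, Hspa1a and Hspa8. Reads of Hspa1a, Hspa1b and Hspa1l can be split among these genes, so their calls may not be independent. Also higher were both HSP90 genes and the HSP70 partners Dnajb1, Dnaja1, Hsph1 and Bag3. The calls of 13 members held under all 18 other settings tried: Hspa1a, Hspa1b, Hspa1l, Hspa8, Bag3, Dnajb14 and Dnajc16 as higher, and Hspa13, Hspa2, Hspb8, Dnajb2, Dnajc25 and Dnajc1 as lower.

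**Figure D1:**
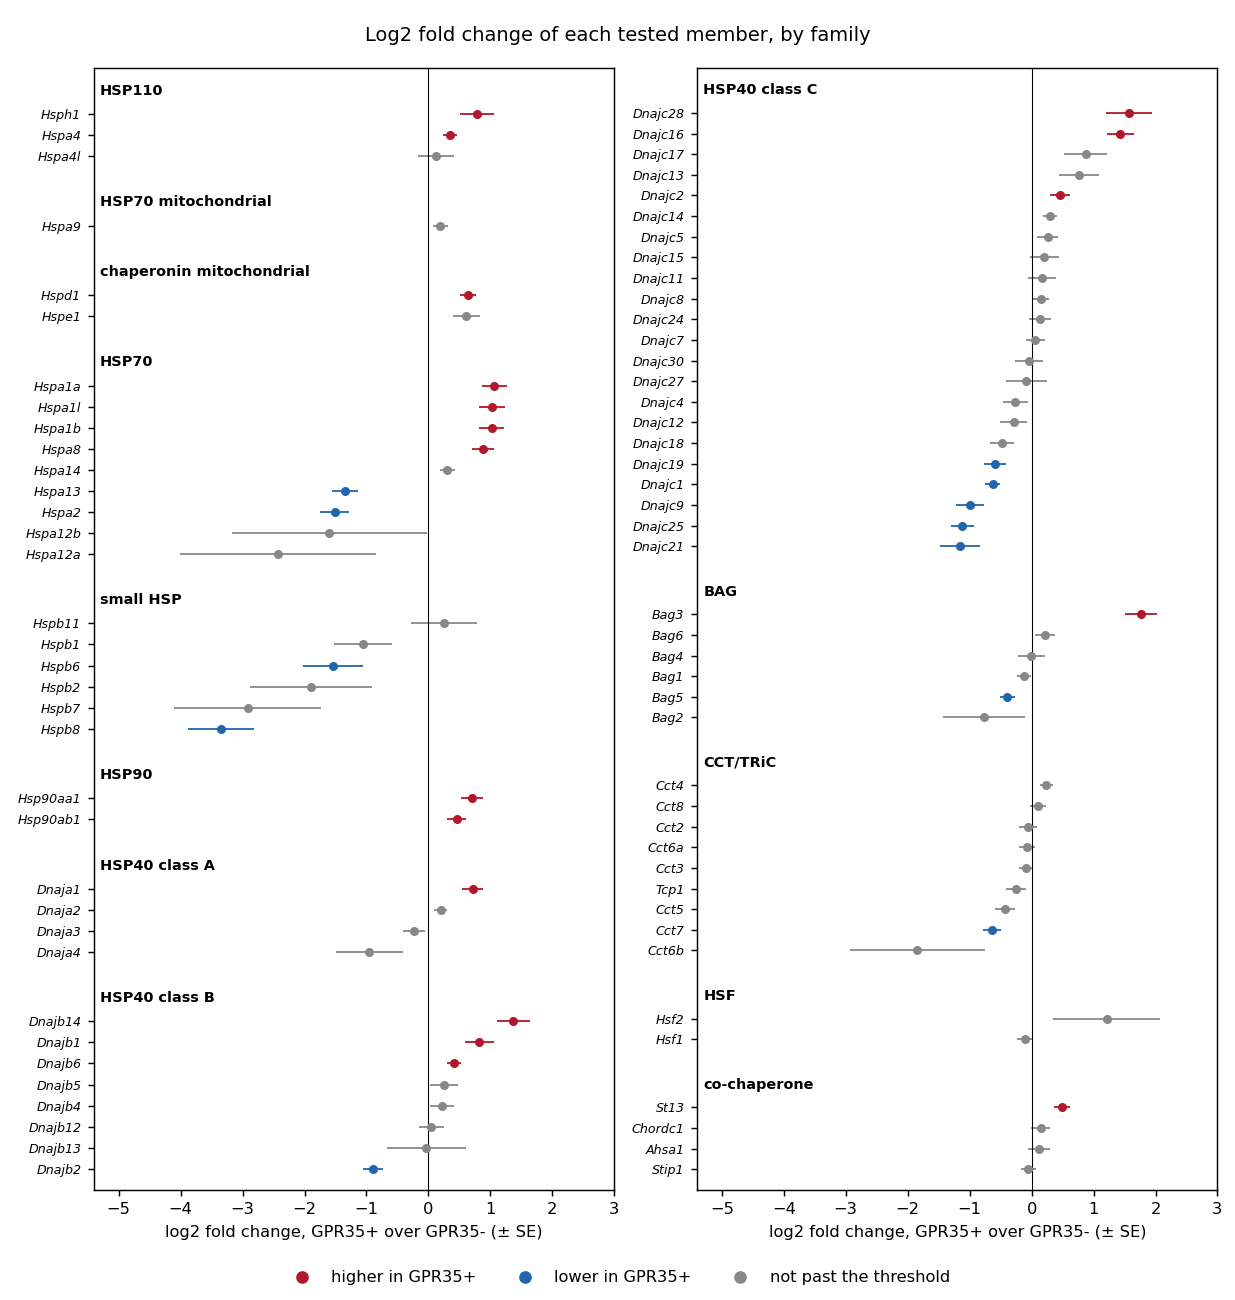
Log2 fold change, GPR35-positive over GPR35-negative, with its SE for the tested members, grouped by family. The HSP90 pair and the HSP70 genes Hspa1a, Hspa1b, Hspa1l and Hspa8 lie right of the line at 0. Of the genes grouped by the symbol Hspb, 5 of 6 lie left of it. Red marks higher, blue lower and grey members not past the threshold.

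The stress-inducible HSP70 genes Hspa1a and Hspa1b were among the most abundant RNAs of both populations and were higher in GPR35-positive cells. Hspa1b ranked 5 to 6 by count in GPR35-positive libraries and 3 to 6 in GPR35-negative libraries. The pair took 1.62 to 2.34% of all counts in GPR35-positive and 0.999 to 1.5% in GPR35-negative libraries.

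Hspa1b was at 10346, 13709, 13888 and 13118 CPM in the GPR35-positive libraries of replicates 1 to 4 and at 6600, 8188, 5260 and 5058 CPM in the GPR35-negative ones. Hspa1a was at 7987, 10803, 10739 and 9503 CPM in GPR35-positive and 5069, 6063, 3762 and 3763 CPM in GPR35-negative libraries. For both genes every GPR35-positive library lay above every GPR35-negative one. In edgeR's fit Hspa1b had a log2 fold change of 1.02 ± 0.20 (SE) with an adjusted p of 0.00466, and Hspa1a one of 1.07 ± 0.21 with an adjusted p of 0.00431. Within animals the Hspa1b difference was 0.65 and 0.74 log2 CPM in replicates 1 and 2, and 1.40 and 1.37 in replicates 3 and 4. Macrophage identity sums in the GPR35-negative libraries were 21402, 10356, 4450 and 6188 CPM in the same order, higher in replicates 1 and 2; whether this bears on the Hspa1b differences was not tested.

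Hspa1a (chromosome 17, 34969359 to 34972156, GRCm38.p6) and Hspa1b (34956429 to 34959238) are near-identical neighbours, so the authors' counting can split their reads and the level of each is uncertain. Hspa1a held 42.0 to 44.1% of the pair's counts in GPR35-positive and 41.7 to 43.4% in GPR35-negative libraries. Hspa1l (34972703 to 34979228), a relative of the pair known mainly from testis, was at 582 ± 92.1 CPM in GPR35-positive and 284 ± 76.3 CPM in GPR35-negative libraries (log2 fold change 1.03 ± 0.21, edgeR adjusted p = 0.00561). Its share of the counts of these 3 genes was 2.42 to 2.62% in GPR35-positive and 2.44 to 2.64% in GPR35-negative libraries, nearly the same in every library, and its count is uncertain for the same reason.

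The promoter windows of Hspa1a and Hspa1b are shown for their likeness and for the facing GAA and TTC they hold. Such a match is found in 15.1% of 27025 promoters, and neither window holds a longer run of such units. Both are on the minus strand (RefSeq, GRCm38.p6), 250 bases before to 50 after the start, at chr17:34972107-34972406 for Hspa1a and chr17:34959189-34959488 for Hspa1b. They have the same base at 296 of 300 positions, and the capitals mark the repeat, GAA and TTC facing each other.
Hspa1a: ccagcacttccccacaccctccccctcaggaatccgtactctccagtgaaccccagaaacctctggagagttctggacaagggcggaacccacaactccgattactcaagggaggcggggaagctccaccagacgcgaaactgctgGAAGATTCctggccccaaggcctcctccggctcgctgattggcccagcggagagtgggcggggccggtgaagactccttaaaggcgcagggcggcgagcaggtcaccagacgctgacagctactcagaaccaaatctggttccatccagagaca
Hspa1b: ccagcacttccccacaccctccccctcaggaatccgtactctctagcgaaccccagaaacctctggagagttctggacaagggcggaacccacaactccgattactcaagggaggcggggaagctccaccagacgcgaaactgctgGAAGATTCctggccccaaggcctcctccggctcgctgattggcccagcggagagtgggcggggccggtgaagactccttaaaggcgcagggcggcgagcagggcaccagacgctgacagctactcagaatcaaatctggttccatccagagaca

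Hspa8 (HSC70), the constitutive HSP70 that also uncoats clathrin vesicles, was higher in GPR35-positive cells too. It was at 2708, 3338, 2872 and 2885 CPM in GPR35-positive and 1691, 1978, 1282 and 1457 CPM in GPR35-negative libraries. The groups did not overlap; edgeR gave Hspa8 a log2 fold change of 0.88 ± 0.17 (SE) and an adjusted p of 0.00421. The log2 ratio of Hspa1a plus Hspa1b to Hspa8 was 2.93 ± 0.145 in GPR35-positive and 2.76 ± 0.112 in GPR35-negative libraries (SD, n = 4 each; 2-sided exact permutation p = 0.143, adjusted over 2 ratios 0.143), and higher in the GPR35-positive library of 3 of 4 animals. A difference between inducible and constitutive HSP70 was therefore not shown, and 4 libraries against 4 cannot give a p below 0.0286 in this test. Exact sign flips within animals gave p = 0.25, where 0.125 is the smallest possible.

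Other HSP70 genes were lower or did not pass. Hspa13, a microsomal HSP70, was at 60.7, 32.7, 41.2 and 43.3 CPM in GPR35-positive and 93.9, 139, 118 and 101 CPM in GPR35-negative libraries (log2 fold change -1.34 ± 0.21, edgeR adjusted p = 0.00162). Hspa2, known for its role in spermatogenesis, was at 25.5, 21.2, 20.9 and 17.6 CPM in GPR35-positive and 38.3, 55.9, 69.5 and 79.9 CPM in GPR35-negative libraries (-1.52 ± 0.23, edgeR adjusted p = 0.00157). Neither gene overlapped between the groups. Hspa14, a ribosome-associated HSP70, was at 62.1 ± 1.53 against 50.2 ± 5.55 CPM without overlap (0.31 ± 0.12, edgeR adjusted p = 0.0665). The distant relatives Hspa12a and Hspa12b were low, at 0 to 1.95 and 0 to 2.57 CPM in GPR35-positive and 0.119 to 6.39 and 0 to 10.2 CPM in GPR35-negative libraries.

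**Figure D2:**
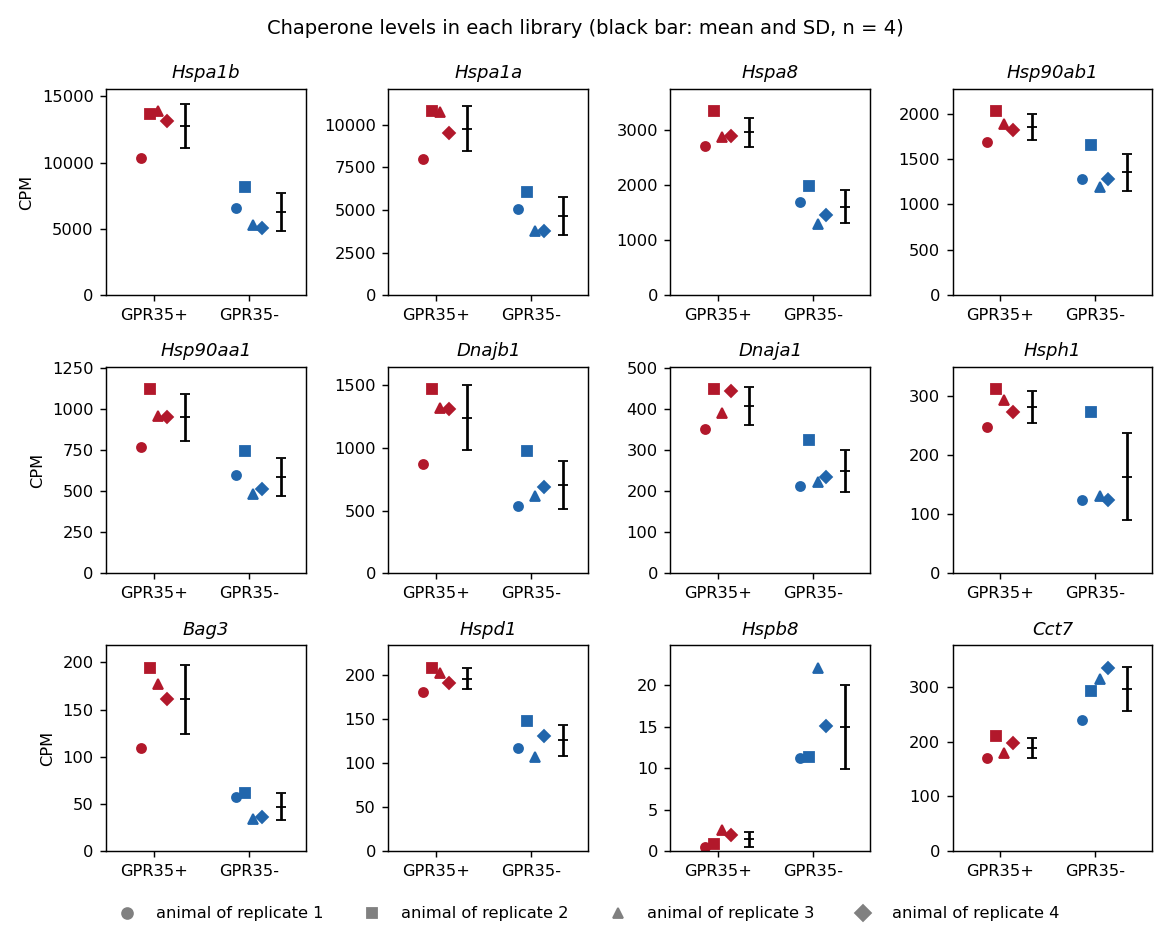
CPM of selected chaperone genes in each library, GPR35-positive left of GPR35-negative, with the mean and SD of 4 libraries. For Hspa1a, Hspa1b, Hspa8 and Bag3 all GPR35-positive points lie above the GPR35-negative ones, and Hsph1 has 1 GPR35-negative library at 273 CPM.

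Among the exchange factors of HSP70, Bag3 had the highest log2 fold change of all 78 members. Bag3, which links HSP70 to small heat shock proteins and to selective autophagy, was at 109.7, 195, 177 and 161 CPM in GPR35-positive and 57.7, 61.6, 34.1 and 36.2 CPM in GPR35-negative libraries. The groups did not overlap (log2 fold change 1.76 ± 0.26, edgeR adjusted p = 0.00118), and the within-animal differences were 0.93, 1.66, 2.38 and 2.15 log2 CPM in replicates 1 to 4. Bag5, another BAG-domain cofactor, was lower, at 43.2 ± 3.21 against 56.6 ± 4.53 CPM (-0.39 ± 0.12, edgeR adjusted p = 0.0276). The Bag5 call ended with the replicate block (edgeR adjusted p = 0.0503) and in 9 of 12 fits without an animal or library, and its log2 fold change was -0.68 with library size scaling. Bag1, Bag2, Bag4 and Bag6 did not pass, at log2 fold changes of -0.13, -0.77, -0.01 and 0.22.

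Hsph1, a heat-induced HSP110, was at 247, 311, 292 and 272 CPM in GPR35-positive and 124, 273, 130.2 and 124 CPM in GPR35-negative libraries. GPR35-negative replicate 2 lay within the GPR35-positive range and apart from the other GPR35-negative libraries. Hsph1 had a log2 fold change of 0.78 ± 0.27 (edgeR adjusted p = 0.0469) and 1.2 without that library, and the call ended in 10 of 12 fits without an animal or library (highest edgeR adjusted p = 0.188) and with RLE scaling (0.0559), the 5 CPM filter (0.0579) and library size scaling (log2 fold change 0.51, adjusted p = 0.13). Hspa4, its constitutive relative, was at 167 ± 7.07 against 131 ± 13.9 CPM (0.35 ± 0.12, edgeR adjusted p = 0.0397; 0.0546 with the replicate block). The Hspa4 call also ended in 9 of 12 such fits and with RLE scaling (0.0549), the 5 CPM filter (0.0953) and library size scaling (log2 fold change 0.06, adjusted p = 0.671). Hspa4l did not pass, at 23.2 ± 7.44 against 21.4 ± 5.79 CPM (0.12 ± 0.29).

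Both cytosolic HSP90 genes were higher in GPR35-positive cells, without overlap of the groups. Hsp90aa1, the inducible form, was at 769, 1119, 957 and 953 CPM in GPR35-positive and 599.5, 741, 481 and 516 CPM in GPR35-negative libraries (log2 fold change 0.70 ± 0.18, edgeR adjusted p = 0.0157). Hsp90ab1, the constitutive form, was at 1685, 2031, 1892 and 1826 CPM in GPR35-positive and 1285, 1654, 1190 and 1285 CPM in GPR35-negative libraries (0.46 ± 0.15, edgeR adjusted p = 0.0394). The Hsp90aa1 call ended without replicate 3 (edgeR adjusted p = 0.0927), without replicate 4 (0.0939) and with library size scaling (log2 fold change 0.42, adjusted p = 0.0705). The Hsp90ab1 call ended in 9 of 12 fits without an animal or library and with RLE scaling (0.0553), the 5 CPM filter (0.0696) and library size scaling (log2 fold change 0.18, adjusted p = 0.324). The log2 ratio of Hsp90aa1 to Hsp90ab1 was -0.98 ± 0.114 in GPR35-positive and -1.22 ± 0.108 in GPR35-negative libraries (SD, n = 4 each). It was higher in the GPR35-positive library of 3 of 4 animals. A 2-sided exact permutation test, which leaves out the pairing by animal, gave p = 0.0571 (adjusted over 2 ratios 0.114). Exact sign flips within animals gave p = 0.25, where 0.125 is the smallest possible.

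Of the 4 co-chaperones in the set, 1 passed (25%, against 38.0% of all genes). St13 (HIP, which stabilises HSP70 on its client) was at 78.3, 88.4, 88.4 and 95.8 CPM in GPR35-positive and 69.1, 55.6, 55.1 and 69.9 CPM in GPR35-negative libraries, without overlap (log2 fold change 0.49 ± 0.13, edgeR adjusted p = 0.0169). Its call ended without replicate 2 (edgeR adjusted p = 0.0675), without replicate 3 (0.112), without GPR35-positive replicate 4 (0.0538) and with library size scaling (log2 fold change 0.20, adjusted p = 0.262). Stip1 (HOP, the bridge between HSP70 and HSP90) was at 107 ± 8.44 against 111 ± 12.7 CPM (-0.05 ± 0.12), Ahsa1, an activator of the HSP90 ATPase, at 107 ± 5.23 against 98.0 ± 23.8 CPM (0.12 ± 0.17) and Chordc1, an HSP90 partner, at 84.5 ± 10.8 against 76.3 ± 11.9 CPM (0.15 ± 0.15). The transcription factor Hsf1 did not pass, at 40.1 ± 3.27 against 43.1 ± 4.33 CPM (-0.11 ± 0.13, edgeR adjusted p = 0.536), nor did Hsf2, at 2.65 ± 0.423 against 1.13 ± 1.03 CPM (1.22 ± 0.86, edgeR adjusted p = 0.291).

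**Figure D3:**
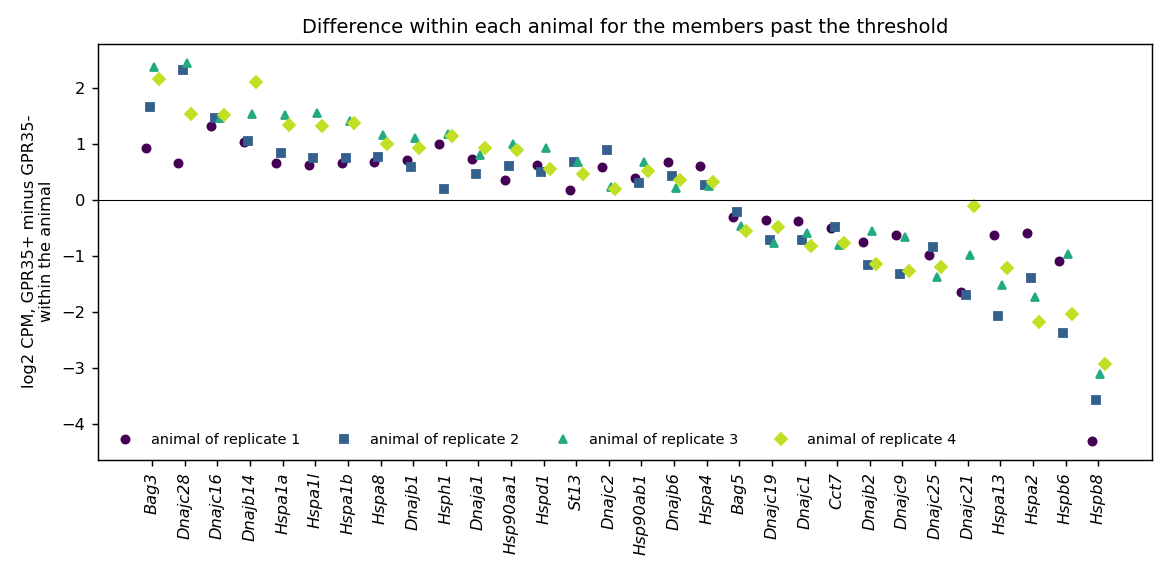
Difference in log2 CPM, GPR35-positive minus GPR35-negative, within each of the 4 animals for members past the threshold. All 30 have 1 sign in all 4 animals, but they were chosen by the group test on the same libraries. Among all 78 tested members 51 have 1 sign in all 4 animals. The Hspa1b differences run from 0.65 to 1.40.

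The J-domain genes, which deliver clients to HSP70 and start its ATPase, went in both directions. Dnajb1, the heat-induced partner of HSP70, was at 873, 1469, 1321 and 1310 CPM in GPR35-positive and 535, 978, 615 and 692 CPM in GPR35-negative libraries. GPR35-positive replicate 1 lay inside the GPR35-negative range but above the GPR35-negative library of the same animal. Dnajb1 had a log2 fold change of 0.82 ± 0.23 (edgeR adjusted p = 0.0226; the call ended in 7 of 12 fits without an animal or library). It also ended with library size scaling (log2 fold change 0.54, adjusted p = 0.0821). Dnaja1, a farnesylated HSP70 partner, was at 351, 448, 389.8 and 444 CPM in GPR35-positive and 213, 325, 223 and 234 CPM in GPR35-negative libraries (0.71 ± 0.17, edgeR adjusted p = 0.0104; 0.0644 without replicate 3 and 0.0758 without replicate 4). Its groups did not overlap, and its call also ended with library size scaling (log2 fold change 0.43, adjusted p = 0.0523).

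Dnajb14, in the endoplasmic reticulum membrane, was at 54.5, 62.7, 44.2 and 61.4 CPM in GPR35-positive and 26.7, 30.2, 15.3 and 14.3 CPM in GPR35-negative libraries, without overlap (log2 fold change 1.37 ± 0.27, edgeR adjusted p = 0.00458). Dnajb6, a suppressor of aggregation, was at 55.5 ± 3.78 against 41.6 ± 2.81 CPM (0.42 ± 0.11, edgeR adjusted p = 0.0191; ended in 5 of 12 fits without an animal or library). Its call also ended with library size scaling (log2 fold change 0.12, adjusted p = 0.417). Dnajb2, known mainly from neurons, was lower at 14.7 ± 2.12 against 27.4 ± 2.43 CPM (-0.90 ± 0.16, edgeR adjusted p = 0.00314). Dnaja2, Dnaja3, Dnaja4, Dnajb4, Dnajb5, Dnajb12 and Dnajb13 did not pass, with log2 fold changes of 0.20, -0.24, -0.96, 0.22, 0.25, 0.05 and -0.03 in that order.

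Class C, the most varied J-domain class, had 3 higher and 5 lower of 22 tested genes, or 13.6% and 22.7%, near the 18.4% and 19.5% of all genes. Dnajc28 was at 21.7, 24.8, 22.0 and 23.8 CPM in GPR35-positive and 13.7, 4.93, 4.0 and 8.24 CPM in GPR35-negative libraries. It was even among the GPR35-positive libraries and more spread among the GPR35-negative ones, with a log2 fold change of 1.57 ± 0.37 (edgeR adjusted p = 0.0101; 0.0524 without replicate 2 and 0.0585 without replicate 4). Dnajc16 was at 27.8, 20.1, 22.5 and 20.9 CPM in GPR35-positive and 11.2, 7.25, 8.15 and 7.28 CPM in GPR35-negative libraries (1.43 ± 0.21, edgeR adjusted p = 0.00127). Its difference was alike in the 4 animals, at 1.31, 1.47, 1.46 and 1.52 log2 CPM. Dnajc2, which works at the ribosome with Hspa14, was at 41.4 ± 3.81 against 30.1 ± 5.20 CPM (0.46 ± 0.16, edgeR adjusted p = 0.0488; 0.0687 with the replicate block, and ended in 10 of 12 fits without an animal or library). The Dnajc2 call also ended with RLE scaling (0.0565), the 5 CPM filter (0.0868) and library size scaling (log2 fold change 0.16, adjusted p = 0.466).

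Dnajc1, in the endoplasmic reticulum membrane, was lower at 36.9 ± 3.48 CPM in GPR35-positive and 57.0 ± 3.83 CPM in GPR35-negative libraries (log2 fold change -0.63 ± 0.12, edgeR adjusted p = 0.00411). Dnajc25 was at 10.8 ± 0.969 against 23.3 ± 4.26 CPM (-1.12 ± 0.19, edgeR adjusted p = 0.0022). Dnajc9, a histone chaperone, was at 26.1 ± 4.69 against 52.2 ± 13.7 CPM (-1.0 ± 0.22, edgeR adjusted p = 0.0083; 0.062 without replicate 2 and 0.0532 without replicate 4). These 3 genes did not overlap between the groups. Dnajc21, a ribosome biogenesis factor, was at 14.0 ± 3.88 against 31.2 ± 11 CPM (-1.16 ± 0.32, edgeR adjusted p = 0.0202). Dnajc19, of the mitochondrial import motor, was at 26.1 ± 4.25 against 39.4 ± 6.93 CPM (-0.59 ± 0.18, edgeR adjusted p = 0.03). Their groups overlapped, and the calls ended in 8 of 12 and 9 of 12 fits without an animal or library. The other 14 did not pass, at log2 fold changes of -0.48 to 0.87. Among them were the splicing-associated Dnajc17 (0.87) and Dnajc8 (0.15), the cysteine string protein gene Dnajc5 (0.26) and Dnajc24 of diphthamide synthesis (0.13), and further Dnajc14 0.29, Dnajc11 0.17, Dnajc15 0.20, Dnajc7 0.06, Dnajc30 -0.04, Dnajc27 -0.08, Dnajc4 -0.26, Dnajc12 -0.29 and Dnajc18 -0.48. The endosomal Dnajc13 was at 71.3, 37.1, 35.8 and 39.1 CPM in GPR35-positive and 43.8, 19.4, 22.9 and 22.1 CPM in GPR35-negative libraries (0.76 ± 0.32, edgeR adjusted p = 0.0931, and 0.00547 with the replicate block).

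Small heat shock proteins hold unfolded clients without ATP. The genes grouped here by the symbol Hspb had a median log2 fold change of -1.72 with 2 of 6 lower (33.3%, against 19.5% of all genes). Hspb8, a partner of BAG3 in selective autophagy, was at 0.513, 0.903, 2.52 and 1.93 CPM in GPR35-positive and 11.2, 11.3, 22.1 and 15.1 CPM in GPR35-negative libraries. The groups did not overlap (log2 fold change -3.34 ± 0.53, edgeR adjusted p = 0.0018), and the direction was opposite to that of Bag3. Hspb6 was at 3.46 ± 1.85 against 10.1 ± 4.07 CPM (-1.54 ± 0.48, edgeR adjusted p = 0.0331; ended in 9 of 12 fits without an animal or library). Hspb1 (HSP27) was at 17.1, 45.2, 54.9 and 45.2 CPM in GPR35-positive and 37.4, 51.8, 122 and 127 CPM in GPR35-negative libraries, with overlapping groups and a lower value in the GPR35-positive library of all 4 animals. It did not pass (-1.06 ± 0.47, edgeR adjusted p = 0.104) but did with the replicate block (0.0157), as did the heart and muscle gene Hspb7 (-2.91 ± 1.19, edgeR adjusted p = 0.082, and 0.0495 with the block). Hspb2 was at 0.234 to 1.07 CPM in GPR35-positive and 0.297 to 4.63 CPM in GPR35-negative libraries. Hspb11 went the other way, with a log2 fold change of 0.26 ± 0.53. Sums of the 12 stromal and endothelial markers were lower in GPR35-positive libraries, at 568, 224, 1123 and 664 CPM. In GPR35-negative libraries they were 5065, 3186, 7445 and 7313 CPM. The part of these markers in the result was not tested.

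CCT/TRiC is a ring of 8 different subunits, and the genes of the somatic ones, Tcp1, Cct2, Cct3, Cct4, Cct5, Cct6a, Cct7 and Cct8, had log2 fold changes of -0.64 to 0.24 with a median of -0.08. Cct7 was lower, at 169, 210.2, 179 and 197 CPM in GPR35-positive and 240.0, 293, 314 and 335 CPM in GPR35-negative libraries, without overlap (-0.64 ± 0.14, edgeR adjusted p = 0.00756; 0.0645 without replicate 3). Cct5 did not pass, at 212 ± 15 against 286 ± 59.0 CPM (-0.43 ± 0.16, edgeR adjusted p = 0.0651), but did without GPR35-negative replicate 1 (0.0142) and with DESeq2 (0.026). Cct4 was at 153 ± 4.79 against 130 ± 7.35 CPM without overlap (0.24 ± 0.10, edgeR adjusted p = 0.0878). The remaining subunits did not pass either, with Tcp1 -0.25, Cct2 -0.06, Cct3 -0.09, Cct6a -0.08 and Cct8 0.11. With library size as the only scaling Cct3, Cct5 and Tcp1 were lower as well. Per length the 8 subunits stood within 2.45-fold of each other in GPR35-positive libraries, at 49.0 to 120.1 CPM per kilobase, and within 3.17-fold in GPR35-negative libraries, at 51.0 to 161. Cct6b, the testis form, was at 0 to 0.585 CPM in GPR35-positive and 0.297 to 2.2 CPM in GPR35-negative libraries.

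**Figure D4:**
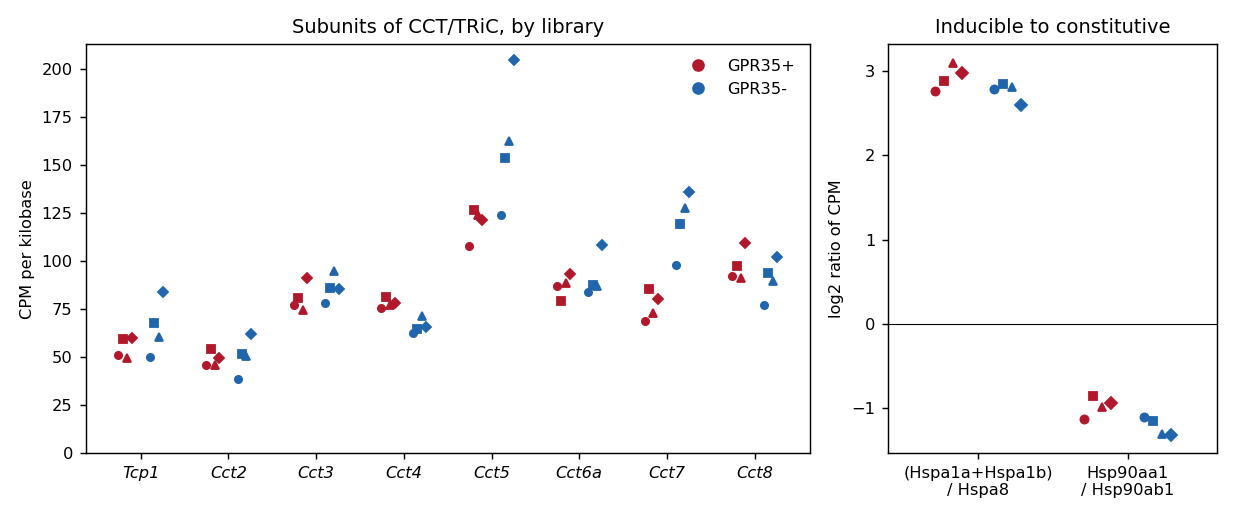
CPM per kilobase of the 8 somatic CCT/TRiC subunits in each library, and log2 ratios of inducible to constitutive HSP70 and HSP90 genes, by group. Cct7 stands apart between the groups, and the ranges of both ratios overlap.

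Of the mitochondrial members, the chaperonin Hspd1 (HSP60) was higher in GPR35-positive cells. It was at 181, 208, 201 and 191 CPM in GPR35-positive and 117, 148, 106 and 131 CPM in GPR35-negative libraries, without overlap (log2 fold change 0.64 ± 0.13, edgeR adjusted p = 0.00561; 0.0513 without replicate 3, and a log2 fold change of 0.35 with library size scaling). Its lid Hspe1 (HSP10) was at 124, 193, 157 and 149 CPM in GPR35-positive and 75.4, 130.2, 81.7 and 120.1 CPM in GPR35-negative libraries, above the other library in all 4 animals. It did not pass (0.61 ± 0.21, edgeR adjusted p = 0.0509) but did with the replicate block (0.0138). Hspd1 (55077833 to 55088243) and Hspe1 (55088148 to 55091317) stand head to head on chromosome 1 and overlap there on opposite strands in these RefSeq coordinates. In GENCODE's exons they share 112 bases, and reads without strand cannot assign them. Mitochondrial HSP70, Hspa9, was at 157 ± 10.8 against 137 ± 15.6 CPM (0.19 ± 0.12; edgeR adjusted p = 0.245). Its exchange factors Grpel1 (-0.84 ± 0.14) and Grpel2 (-0.83 ± 0.12) were lower.

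Levels per length began with the same genes in both groups. Hspa1b was at 4543 CPM per kilobase in GPR35-positive and 2234 in GPR35-negative libraries, followed by Hspa1a at 3487 CPM per kilobase in GPR35-positive and 1667 in GPR35-negative libraries, Hspa8 at 1403 CPM per kilobase in GPR35-positive and 762 in GPR35-negative libraries and Hsp90ab1 at 741 CPM per kilobase in GPR35-positive and 539.8 in GPR35-negative libraries. Dnajb1, at 385 CPM per kilobase in GPR35-positive and 218 in GPR35-negative libraries, and Hsp90aa1, at 333 CPM per kilobase in GPR35-positive and 205 in GPR35-negative libraries, came next and lay within their SDs of each other in both groups. At the low end 4 members were under 1 CPM per kilobase in both group means. No member reached a log2 fold change of 2.05, the median of the 16 macrophage identity genes.

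Further chaperone lists outside the symbol rule are given by their counts, beside 18.4% of all genes higher and 19.5% lower. Of 18 further HSP90 co-chaperones 1 was higher, Tomm34 of mitochondrial import (log2 fold change 0.55 ± 0.13), and 3 were lower, Ruvbl1 (-0.84 ± 0.18), Fkbp4 (-0.57 ± 0.18) and Unc45a (-0.65 ± 0.20), which is 16.7% lower, with a median of -0.18. Of 10 HSP70 cofactors 4 (40.0%) were lower, Sil1 (-1.63 ± 0.15) and Hyou1 (-1.22 ± 0.17) of the endoplasmic reticulum beside the Grpel pair. Prefoldin and tubulin folding genes had 1 higher and 4 (30.8%) lower of 13, among them Pfdn6 (-0.86 ± 0.19), and mitochondrial quality genes had 2 (25%) lower of 8, Clpb (-1.48 ± 0.16) and Clpp (-1.11 ± 0.24). Endoplasmic reticulum chaperones were lower for 6 of 11 (54.5%), with Pdia4 at -2.45 ± 0.19, Hsp90b1 at -1.94 ± 0.18 and Dnajb11 at -1.57 ± 0.15. Hspa5 (0.38 ± 0.20), Canx (0.27 ± 0.16) and Pdia3 (0.23 ± 0.12) went the other way and did not pass. B and plasma cell genes had a median of -5.53 in the same libraries, and their part in these differences was not tested.

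Immediate early genes, transcribed within minutes of many stimuli, were higher for 11 and lower for 1 of 17 in GPR35-positive cells (64.7% and 5.88%, against 18.4% and 19.5% of all genes), with a median log2 fold change of 0.83. Nr4a1 was at 1.48 ± 0.17, Btg2 at 1.46 ± 0.20 and Atf3 at 2.06 ± 0.34. Their summed level was 37783 to 42048 CPM in GPR35-positive and 19900 to 28044 CPM in GPR35-negative libraries, and their part in the chaperone differences was not tested.

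Promoter windows were searched for a pair of units of the heat shock repeat, GAANNTTC or TTCNNGAA, each of which reads the same on both strands. RefSeq windows of 300 bases (GRCm38.p6) were found for 62 of the 79 members, and the first listed window of each gene was used. A pair was present in 13 of 62 members (21.0%) against 15.1% of 27025 promoters. It was present in 6 of 13 higher members (Hspa1a, Hspa1b, Hsph1, Bag3, Dnaja1 and Dnajb6). The near-identical windows of Hspa1a and Hspa1b are counted separately there. The higher members Dnajb1, Hspd1, Hspa1l, Hspa4, Dnajb14, Dnajc16 and Dnajc28 had a window without a pair. Of these, Dnajb1 and Hspd1 have 2 listed windows, and only the first is counted. The higher members Hspa8, Hsp90aa1, Hsp90ab1, Dnajc2 and St13 had no window. A pair was also present in 1 of 11 lower members (Hspb8) and 6 of 38 that did not pass. A run of 3 units, GAANNTTCNNGAA or TTCNNGAANNTTC, which contains the pair, was present in Hsph1, Dnajb6, Chordc1 and Hspe1, 4 of 62, against 0.53% of all promoters. The windows below hold repeats (capitals) in the higher members Hsph1 (chr5:149636287-149636586, minus strand) and Bag3 (chr7:128523333-128523632, plus strand), and the longest runs among members that did not pass, Chordc1 (chr9:18292017-18292316, plus strand) and Hspe1 (chr1:55087898-55088197, plus strand).
Hsph1: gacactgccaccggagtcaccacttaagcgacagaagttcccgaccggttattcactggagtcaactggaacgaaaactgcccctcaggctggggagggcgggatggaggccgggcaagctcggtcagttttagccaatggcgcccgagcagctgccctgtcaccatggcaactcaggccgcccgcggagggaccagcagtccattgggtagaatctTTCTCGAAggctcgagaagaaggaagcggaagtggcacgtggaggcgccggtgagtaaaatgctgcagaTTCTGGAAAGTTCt
Bag3: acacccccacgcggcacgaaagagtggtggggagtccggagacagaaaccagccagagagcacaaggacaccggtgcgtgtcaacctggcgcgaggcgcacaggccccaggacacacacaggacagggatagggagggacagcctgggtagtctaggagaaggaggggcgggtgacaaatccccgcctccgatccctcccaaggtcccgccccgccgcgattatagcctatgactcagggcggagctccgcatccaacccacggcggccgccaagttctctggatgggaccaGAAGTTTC
Chordc1: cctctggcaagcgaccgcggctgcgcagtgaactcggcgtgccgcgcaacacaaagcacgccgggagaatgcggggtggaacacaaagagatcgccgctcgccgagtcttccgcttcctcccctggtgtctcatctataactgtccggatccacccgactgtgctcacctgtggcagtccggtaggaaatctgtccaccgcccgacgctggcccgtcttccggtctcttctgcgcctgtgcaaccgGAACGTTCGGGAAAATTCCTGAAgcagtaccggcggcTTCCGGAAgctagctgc
Hspe1: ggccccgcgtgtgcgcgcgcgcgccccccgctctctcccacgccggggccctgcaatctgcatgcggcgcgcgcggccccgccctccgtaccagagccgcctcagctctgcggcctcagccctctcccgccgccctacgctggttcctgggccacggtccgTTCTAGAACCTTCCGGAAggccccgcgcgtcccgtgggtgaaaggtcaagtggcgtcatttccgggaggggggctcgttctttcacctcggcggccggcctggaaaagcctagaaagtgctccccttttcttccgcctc
The windows above held 5 pairs for Chordc1 (log2 fold change 0.15), 3 for Hspe1 (0.61), 3 for Hsph1 (0.78) and 1 for Bag3 (1.76). They were chosen for display, and a relation of pairs to fold change was not tested. A match describes the letters of the window, and neither binding nor a part in the differences was tested.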

How the data were processed

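RNA of sorted cells was amplified with SMART-Seq v4 and made into libraries with Nextera XT, per the labels' protocols, so reads carry neither strand nor molecular identifiers. Raw counts for each Entrez gene make up the table the authors deposited. STAR 2.5.2a, R 3.4.2 and mm10 were used per the submitters' processing notes, while the sources used here name no counting tool. The deposited table also gives each gene's length, another value, used here for levels per kilobase. Of its genes 9 had no symbol (0.0179% of counts) and were kept.

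edgeR 4.0.16 under R 4.3.3 tested 14193 genes (filterByExpr, minimum count 10 and total 15; TMM scaling; quasi-likelihood test; Benjamini-Hochberg adjustment; threshold 0.05) without a block, on all 8 libraries. Log2 fold changes are GPR35-positive over GPR35-negative. Within-animal log2 CPM add a prior count of 2. Ratios were compared by exact permutation over 70 arrangements (Python 3.11.15). Other settings were RLE scaling, library size only, no count filter, at least 5 CPM in 4 libraries, DESeq2 1.42.0, the replicate block, and leaving out each animal or each library. The test was checked on counts simulated from its own fitted means and dispersions, with changes balanced in direction. That check cannot judge the scaling.

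Same-numbered libraries come from 1 animal by label and are paired. Deviations from the group means correlated at 0.205, 0.206, 0.432 and 0.0637 across genes. The highest correlation with a library of another animal was 0.104, 0.104, 0.237 and 0.237. In replicate 4 that was above the value of its own pair, so there the pairing rests on the label. Replicates differed beyond sampling noise (chi-square per degree of freedom at least 26.6). Coordinates and promoters are from RefSeq, GRCm38.p6. In GENCODE exons, 27 members share bases with an annotated gene on the opposite strand, for 19 of them a gene of the deposited table (such as Dnaja1 with Smu1, Cct7 with Pradc1 and Dnajc1 with Mllt10), and their reads cannot be told apart.

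Named genes were 20 core members, and up to 4 increases and 4 decreases per family past the threshold with 1 direction in all animals. Added to these were the highest member of each family per length, and up to 3 genes of each other list. Further members complete the account. Unc45a, Grpel1, Canx, Pdia3 and the values of Hspa5 were added after their values were seen. Members and lists were chosen with earlier results of these data known.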

Additional observations from a re-analysis of the deposited data

Results flagged for a closer look

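In 11 of 156 sets of 4 libraries (78 members in each group) the highest or lowest library stood apart from the other 3 on a log scale by Dixon's criterion, which is 7.05%, where chance gives about 5%. In GPR35-positive replicate 1, Hspb1 (17.1 against 45.2 to 54.9 CPM) and Dnaja4 (2.31 against 9.13 to 12 CPM) were low and Dnajc13 (71.3 against 35.8 to 39.1 CPM) was high. In GPR35-positive replicate 2, Ahsa1 (114 against 104 to 105 CPM), Dnajc11 (58.8 against 43.5 to 45.3 CPM) and Hsf2 (3.28 against 2.39 to 2.49 CPM) were high. In GPR35-negative replicate 2, Hsph1 was high (273 against 124 to 130.2 CPM) and Hspa12a low (0.119 against 3.82 to 6.39 CPM). In GPR35-negative replicate 4, Cct6a was high (235 against 183 to 190.0 CPM), and Dnajb12 (13.2 against 17.9 to 18.9 CPM) and Dnajc17 (1.86 against 4.16 to 4.63 CPM) were low.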

How the results depend on the processing

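Of the 30 calls 13 held under all 18 other settings and 17 ended in at least 1, and none of the 30 changed sign. The 18 higher members became 9 with library size as the only scaling and 8 to 20 without an animal or library, with 8 without replicate 3, 9 without replicate 4 and 11 without GPR35-positive replicate 4. The 12 lower members became 18 with library size as the only scaling and 7 to 14 without an animal or library, with 7 without replicate 3. With the replicate block 18 were higher and 13 lower, 27 of them among the 30, and among the members it changed no call other than those of Hspa4, Dnajc2, Bag5, Hspe1, Hspb1, Hspb7 and Dnajc13; exact sign flips of the animals gave p = 0.25 for both ratios, where 0.125 is the smallest possible. DESeq2 called 22 higher and 16 lower. Members below the threshold that turned in sign were, with library size scaling, Hspa4l (-0.17), Hspa9 (-0.094), Hspb11 (-0.057), Dnaja2 (-0.089), Dnajb4 (-0.064), Dnajb12 (-0.24), Dnajb5 (-0.032), Dnajc8 (-0.15), Dnajc15 (-0.081), Dnajc7 (-0.22), Dnajc5 (-0.030), Dnajc11 (-0.11), Dnajc24 (-0.15), Bag6 (-0.074), Cct8 (-0.18), Cct4 (-0.051), Ahsa1 (-0.16) and Chordc1 (-0.14); with the 5 CPM filter, Dnajb12 (-0.031) and Dnajc7 (-0.018); with no count filter, Bag4 (0.0017); and with the replicate block, Dnajb13 (0.39). Without an animal or library the log2 fold change spanned 0 for Hspa4l (-0.069 to 0.33), Hspa12b (-2.56 to 0.33), Hspb11 (-0.033 to 1.0), Dnajb12 (-0.085 to 0.20), Dnajb13 (-0.36 to 0.92), Dnajc7 (-0.022 to 0.27), Dnajc11 (-0.0062 to 0.33), Dnajc30 (-0.17 to 0.20), Dnajc27 (-0.41 to 0.19), Bag4 (-0.13 to 0.26), Cct6a (-0.11 to 0.015), Cct2 (-0.16 to 0.056) and Stip1 (-0.12 to 0.10). The cause of these changes was not tested. Depth limits Hspa12a, Hspa12b, Hspb2, Hspb7, Cct6b and Hsf2, which had fewer than 10 counts in at least 1 library.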
